A study of Mus musculus with 6 samples.

Results

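The genes described here write, copy, remove or protect DNA methylation in 2-cell mouse embryos, and they were chosen by name. Among the 10 genes are the methyltransferase genes Dnmt1, Dnmt3a and Dnmt3b with their cofactor gene Dnmt3l. The others are the dioxygenase genes Tet1, Tet2 and Tet3 and the regulators Uhrf1, Dppa3 and Trim28. They come from 48967 genes to which listed stretches of exon were assigned, of which 30967 had at least 1 count. All 10 were found under their Ensembl identifiers and all 10 passed the filter on low counts, which left 16020 genes for the comparison of the groups. Together they took up from 0.262% to 0.310% of the counts assigned to genes, depending on the library.

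RNA was sequenced from wild-type embryos of the cross F1 (C57Bl/10 X CBA/H), in 3 control and 3 delipidated libraries that each came from a pool of 3 embryos. Control embryos were cultured from the zygote at 0.5 dpc to the 2-cell stage at 2.0 dpc in KSOM without fatty acids. Delipidated embryos were treated at the zygote stage with cytochalasin B, spun, opened with a laser and relieved of their lipid droplets by aspiration before the same culture. The effects of lipid removal and of the manipulation itself cannot be told apart, since the control embryos were cultured without it. All pools came from a single collection whose embryos were allocated at random, so the p-values below measure the spread between pools of 1 experiment. Counts assigned to genes were 12164963, 16165958 and 12980787 in controls and 20059460, 16332103 and 14683741 in the delipidated libraries. Genes with at least 1 count numbered 22855, 22437 and 20582 in controls and 17091, 19408 and 20158 after delipidation, so every delipidated library had fewer genes with counts than every control library.

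DNMT1 copies methylation onto newly made DNA strands with the help of UHRF1, which binds hemimethylated sites, whereas DNMT3A and DNMT3B set methylation at new sites and DNMT3L stimulates them in germ cells. TET enzymes oxidize methylated cytosine, and TET3 is known as the enzyme of the zygote. DPPA3, also called Stella or PGC7, guards the maternal genome against this oxidation, and TRIM28 holds methylation at imprinted loci together with zinc finger proteins such as ZFP57. Between fertilization and the blastocyst most methylation of the gametes is lost while imprints persist, and oocytes supply much of the RNA and protein involved.

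The label of 2-cell embryos was compared with stage markers. Genes of the 2-cell stage, 14 of 15 of which were found, summed to 774, 393 and 637 CPM (counts scaled to 1000000 per library, with sizes set by the trimmed mean of M values) in controls and to 525, 661 and 908 CPM after delipidation, and Sp110 was the most abundant. The 16 oocyte genes, led by Oosp1, summed to 1858, 1292 and 1858 CPM in controls and to 1488, 1727 and 2187 CPM after delipidation. The groups overlapped for both lists, with an exact two-sided permutation p of 0.5 for the 2-cell genes and 0.7 for the oocyte genes, in a design of 3 against 3 that cannot go below 0.1. The 9 later embryo markers, led by Krt18, summed to between 14.5 and 38.6 CPM over the 6 libraries.

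Counts are deposited per exonic part, a stretch of exon between annotated boundaries, and were summed per gene. Levels between genes were compared as CPM per kilobase of summed part length, on which Dppa3 stood far above the other genes. Dppa3 reached 1279, 997 and 1134 CPM per kb in controls and 1227, 940 and 1415 CPM per kb after delipidation. Its mean over the 6 libraries, 1165 ± 178 CPM per kb (SD, n = 6), was the 23rd highest of the genes tested and 12.6 times the mean of Trim28. Trim28 followed with 81.0, 114 and 108 CPM per kb in controls and 77.3, 105 and 70.7 CPM per kb after delipidation. The libraries of Dppa3 and Trim28 did not overlap, and neither did those of Trim28 and Dnmt1.

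Dnmt1 and its partner Uhrf1 came next, at 52.8 ± 7.12 and 37.7 ± 8.45 CPM per kb (SD, n = 6), with overlapping ranges and Dnmt1 the higher gene in 5 of 6 libraries. Tet3 had 27.1 ± 7.93 CPM per kb and Dnmt3l had 14.9 ± 5.49 CPM per kb (SD, n = 6). Further down were Dnmt3a with 9.68 ± 1.81, Tet1 with 8.17 ± 1.74 and Dnmt3b with 5.18 ± 1.83 CPM per kb (SD, n = 6). Each of these genes from Dnmt1 to Dnmt3b overlapped with its next neighbour in the order over the 6 libraries. Tet2 was lowest on this scale at 1.01 ± 0.382 CPM per kb (SD, n = 6), below Dnmt3b in 6 of 6 libraries without overlap.

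These levels depend on how length is counted, because a read that touches several exonic parts counts in each of them and a listed exon need not be in use. When each part was lengthened by the read length less 1 base, a setting added after the data were seen, Dppa3, Trim28 and Dnmt1 were still the 3 highest genes and Tet2 the lowest, at 635, 37.5, 25.7 and 0.785 CPM per kb. Tet3 with 22.8 CPM per kb then stood above Uhrf1 with 18.7 CPM per kb, and Tet1 with 6.47 CPM per kb above Dnmt3a with 6.19 CPM per kb. The density of the longest part put Dnmt1 at 0.216 CPM per kb and Dnmt3a at 0.166 CPM per kb, since the longest part of Dnmt1 is an alternative first exon with counts in a single library and that of Dnmt3a belongs to a non-coding transcript. On that density Tet2 was not the lowest gene, with 1.92 CPM per kb above the 1.32 of Dnmt3b and the 1.07 of Tet1.

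**Figure D1:**
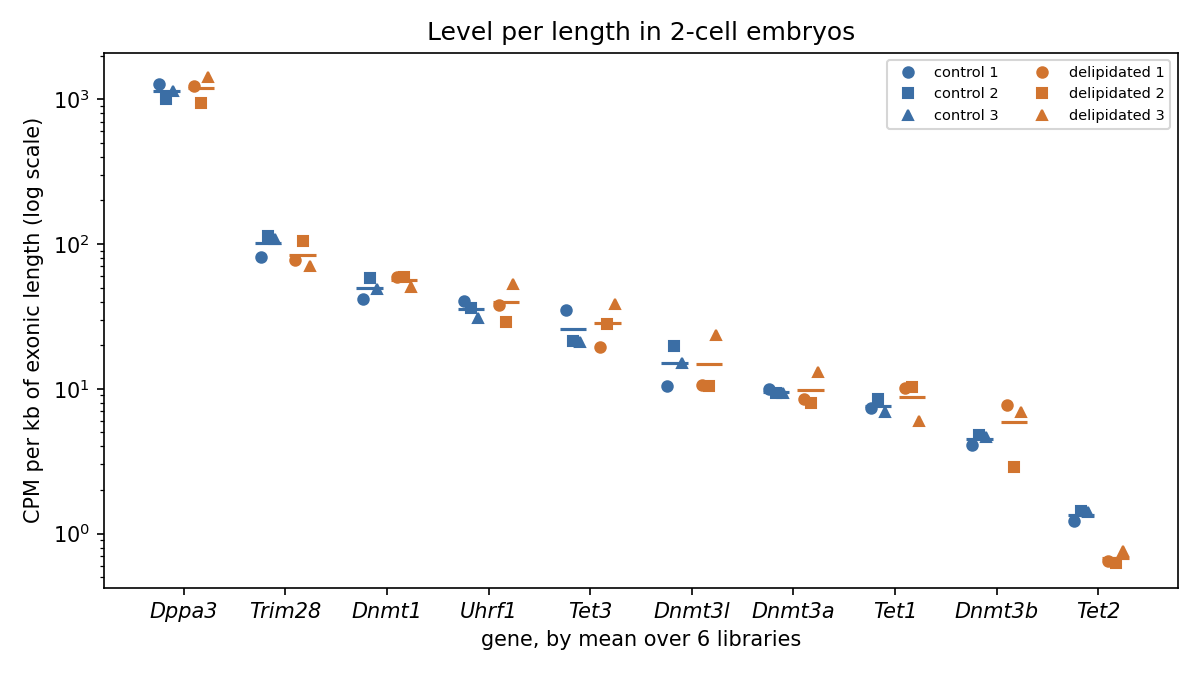
Level of the 10 genes in CPM per kb of exonic length on a log axis, ordered by their mean over 6 libraries, with 1 symbol for each library and a line at the mean of each group of 3. Dppa3 lies between 940 and 1415 CPM per kb, and Tet2 is the gene whose groups do not overlap.

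Within families, the share of the summed level showed which gene carried most of the RNA. Dnmt1 made up 62.8%, 63.4% and 62.7% of the level per length of the 4 Dnmt genes in controls and 68.7%, 73.4% and 53.8% after delipidation. Tet3 made up 80.2%, 68.5% and 71.7% of the 3 Tet genes in controls and 64.4%, 71.8% and 85.0% after delipidation. The groups overlapped for both genes, with an exact two-sided permutation p of 0.7 for Dnmt1 and 0.9 for Tet3. The share of Tet2 was 2.80%, 4.57% and 4.82% in controls and 2.14%, 1.61% and 1.68% after delipidation. All control libraries lay above all delipidated libraries for Tet2, at the smallest p the exact two-sided permutation test allows, 0.1. This share rests on the same counts as the level of Tet2 compared below, so its separation is no separate result.

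Whether the loss of lipid droplets moved with the level of these genes was asked by comparing delipidated with control libraries. None of the 10 genes passed an adjusted p under 0.05 with a log2 fold change beyond 1 in edgeR's quasi-likelihood test with Benjamini-Hochberg adjustment, and 0 of 16020 genes did, which is 0% in each direction. The adjustment accounts for the number of genes tested. DESeq2's Wald test, run without the filter on low counts, and limma-voom also called 0 of the 10 genes. Over the 30967 genes of its fit DESeq2 called 9 higher and 40 lower, and limma-voom called 0 of 16020. Without that filter edgeR called 5 higher and 25 lower. At an unadjusted p under 0.05 there was 1 of the 10 genes, Tet2, against 463 of 16020 genes, or 2.89%, in either direction and 1.74% in the lower direction. The median log2 fold change was 0.11 over the 10 genes, 7 of them positive, and -0.00 over all genes tested.

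Tet2, whose enzyme oxidizes methylated cytosine and lacks the DNA-binding domain of its relatives, is listed as ENSMUSG00000040943 at chr3:133463679-133545139 of GRCm38 on the reverse strand. It had 20.5, 24.2 and 23.8 CPM in controls and 10.9, 10.5 and 12.8 CPM after delipidation. All 3 delipidated libraries lay below all 3 control libraries, as they did for 5.05% of the genes tested. The means were 22.8 ± 2.02 CPM in controls and 11.4 ± 1.22 CPM after delipidation (SD, n = 3), and the fitted level after delipidation was 0.499 times that of controls (95% interval 0.274 to 0.906). In edgeR's quasi-likelihood test Tet2 had an unadjusted p of 0.0262, rank 238 among all genes, and a Benjamini-Hochberg adjusted p of 1.00. Leaving out single libraries gave an unadjusted p from 0.0366 without delipidated replicate 3 to 0.0726 without delipidated replicate 2. DESeq2's Wald test gave an unadjusted p of 0.00692 and a Benjamini-Hochberg adjusted p of 0.409, and over all alternatives the adjusted p ranged from 0.409 to 1.00.

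The counts of Tet2 were also followed along the gene. Its longest coding part, chr3:133485512-133488534, had 73, 128 and 95 counts in controls and 152, 76 and 22 counts after delipidation, and the groups overlapped. The other 32 parts together had 170, 272 and 218 counts in controls and 68, 95 and 159 counts after delipidation. In CPM these parts averaged 15.8 ± 1.25 in the control and 6.81 ± 4.02 in the delipidated libraries (SD, n = 3) without overlap. They belong to the gene sum that already separated the groups, so their separation is no further result. The longest part averaged 7.04 ± 0.806 and 4.58 ± 2.98 CPM (SD, n = 3). With the longest part of each gene in place of the sum, the log2 fold change of Tet2 was -0.63 with an unadjusted p of 0.269 and a Benjamini-Hochberg adjusted p of 1.00 from edgeR's quasi-likelihood test. Counts were found on 19, 20 and 14 of the 33 parts in controls and on 6, 14 and 13 parts in the delipidated libraries. The number of genes with counts was also lower in every delipidated library, as given above, and its part in the Tet2 result was not tested.

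A pair of Tet2 parts, named after their values were seen, went in opposite directions. The coding part chr3:133481334-133481427 had 13, 28 and 9 counts in controls and 0 in each delipidated library, where a count of 0 allows up to 3 counts. The UTR part chr3:133463839-133465846 had 0, 2 and 1 counts in controls and 16, 16 and 27 counts after delipidation. Their unadjusted p-values in edgeR's test of part usage were 0.00236 and 0.00492, and the Benjamini-Hochberg adjusted p over all parts was 1.00 for both. An unadjusted p under 0.05 was found for 0.901% of all parts tested. Each of the pair had enough counts for the test only in the group where it was high, so these p-values decide nothing about it. The floor of 3 counts for a 0 covers counting error alone.

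**Figure D2:**
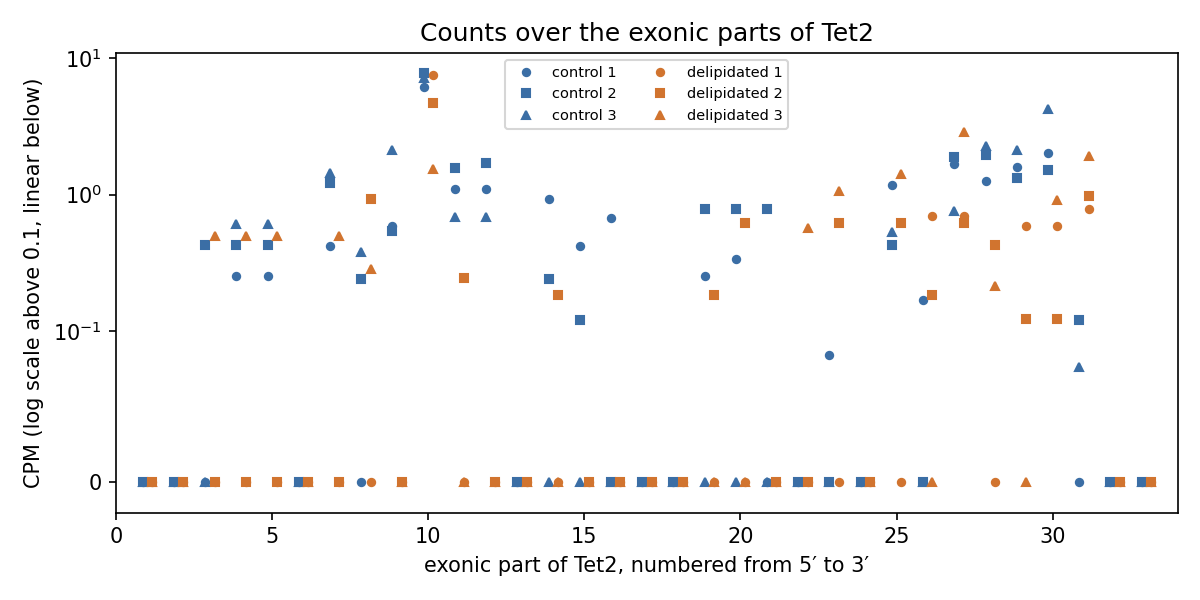
CPM of each library over the 33 exonic parts of Tet2, numbered from 5′ to 3′, on an axis that is linear below 0.1 CPM and logarithmic above. The groups overlap on part 10, the longest coding part, and the delipidated libraries are at 0 on part 12.

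As with Tet2, the groups did not overlap for 2 lists of markers of other cell types. The 9 stromal markers, led by Vim, summed to 27.3, 20.6 and 55.8 CPM in controls and to 1.93, 3.99 and 6.35 CPM after delipidation, and Col1a1, Col3a1, Lum, Pdgfrb and Vim were at 0 in all delipidated libraries. The 8 leukocyte markers, led by Coro1a, summed to 14.8, 10.9 and 10.5 CPM in controls and to 6.67, 8.66 and 6.21 CPM after delipidation. Tyrobp and Lyz2 were at 0 in all delipidated libraries. Coro1a itself overlapped between the groups, with 6.33, 3.75 and 3.19 CPM in controls and 0, 5.16 and 1.91 CPM after delipidation. The exact two-sided permutation p was 0.1 for each list. Of the markers that passed the filter, 3 of 5 stromal and 0 of 4 leukocyte had an unadjusted p under 0.05 in edgeR's quasi-likelihood test. The share over all genes tested was 2.89%. A marker at 0 in all delipidated libraries can pass the filter only through the controls, so these counts are no test of the cell types. Of all 30967 genes with counts, 22% were at 0 in every delipidated library but not in every control library and 7.29% the other way round, and fewer genes had counts in each delipidated library, as given above. In pools of whole embryos, fewer cells of a type and less RNA per cell cannot be told apart. The part of these cells in the Tet2 result, and that of the number of genes with counts in the zeros of these markers, was not tested. According to the methods, the zygotes had been freed of cumulus cells with hyaluronidase and washed repeatedly.

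The other lists of cell markers overlapped between the groups. The 12 cumulus and granulosa cell markers, led by Amhr2, summed to 44.4 ± 32.9 CPM in controls and 24.0 ± 8.16 CPM after delipidation (SD, n = 3), with Ptx3 and Foxl2 at 0 in all 6 libraries and Fshr and Cyp11a1 at 0 in the delipidated libraries alone. The 6 oviduct epithelium markers, led by Epcam, summed to 141 ± 76.2 and 157 ± 42.6 CPM (SD, n = 3), and Wfdc2 was at 0 in all 6 libraries. Epcam alone carried nearly all of this sum, with 82.5, 221 and 111 CPM in controls and 156, 193 and 108 CPM after delipidation. The 7 sperm markers, led by Spata18, summed to 3.33 ± 2.16 and 2.66 ± 3.20 CPM (SD, n = 3), with Tnp2 at 0 in all 6 libraries and Prm1 and Odf1 at 0 in the delipidated libraries alone. None of the tested markers of these 3 lists had an unadjusted p under 0.05 in edgeR's quasi-likelihood test, and 1 of the 5 tested later embryo markers did.

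The maintenance genes Dnmt1 and Uhrf1 overlapped between the groups. Dnmt1, the maintenance methyltransferase, is listed as ENSMUSG00000004099 at chr9:20907209-20959888 of GRCm38 on the reverse strand. It had 306, 429 and 360 CPM in controls and 436, 433 and 373 CPM after delipidation. Control replicates 1 and 3 were the lowest libraries, and control replicate 2 lay among the delipidated ones. The log2 fold change was 0.18 with a 95% interval from -0.23 to 0.60 and an unadjusted p of 0.353 in edgeR's quasi-likelihood test. Uhrf1 had 171, 154 and 131 CPM in controls and 161, 122 and 223 CPM after delipidation, so that the delipidated group held both its lowest and its highest library. Its log2 fold change was 0.15 with a 95% interval from -0.40 to 0.71.

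Among the de novo genes, Dnmt3b had the widest interval. Dnmt3b had 20.9, 24.5 and 23.7 CPM in controls and 39.7, 14.6 and 35.3 CPM after delipidation, so that delipidated replicate 2 lay below and replicates 1 and 3 above all control libraries. Its log2 fold change was 0.37 with a 95% interval from -0.54 to 1.29. It ranged from 0.11 to 0.70 with single libraries left out and was -1.11 with the longest part of each gene. Dnmt3a had 165, 155 and 156 CPM in controls and 142, 132 and 218 CPM after delipidation, a log2 fold change of 0.05 (95% interval -0.47 to 0.57). The control libraries of both genes lay within the range of the delipidated libraries. Dnmt3l, a cofactor without catalytic activity, had 31.4, 58.4 and 44.8 CPM in controls and 31.6, 31.5 and 69.9 CPM after delipidation. Its log2 fold change was -0.02 with a 95% interval from -0.88 to 0.84.

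The other Tet genes showed no such separation as Tet2. Tet3 had 581, 358 and 351 CPM in controls and 323, 463 and 640 CPM after delipidation, and control replicate 1 lay between delipidated replicates 2 and 3. Its log2 fold change was 0.14 with a 95% interval from -0.45 to 0.74. Tet1 had 109, 124 and 101 CPM in controls and 148, 151 and 88.0 CPM after delipidation, a log2 fold change of 0.21 (95% interval -0.36 to 0.78). Delipidated replicate 3 was the lowest library for Tet1 and the highest for Tet3. The difference between Tet2 and its relatives was not tested.

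The guardians of methylation Dppa3 and Trim28 had the narrowest intervals beside Dnmt1. Dppa3 had 1141, 890 and 1012 CPM in controls and 1095, 838 and 1262 CPM after delipidation, a log2 fold change of 0.07 (95% interval -0.33 to 0.47). Trim28 had 337, 475 and 448 CPM in controls and 321, 436 and 294 CPM after delipidation. Delipidated replicates 1 and 3 were the lowest libraries for Trim28 and replicate 2 lay among the control ones. The log2 fold change of Trim28 was -0.26 with a 95% interval from -0.73 to 0.21. Apart from Tet2, each of the 10 genes overlapped between the groups, with unadjusted p-values from 0.246 for Trim28 to 0.962 for Dnmt3l and a Benjamini-Hochberg adjusted p of 1.00 in edgeR's quasi-likelihood test.

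**Figure D3:**
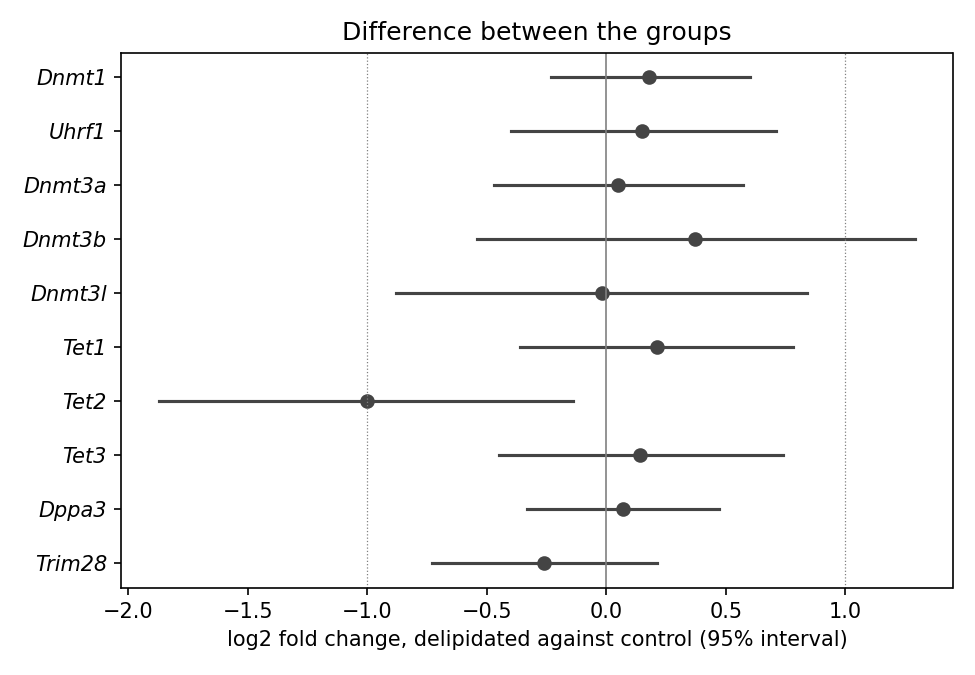
Log2 fold change of delipidated against control libraries for each of the 10 genes (points) with its 95% interval from edgeR's quasi-likelihood fit (lines), and dotted lines at -1 and 1. The interval of Tet2 runs from -1.87 to -0.14, and the other 9 intervals include 0.

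Exon usage of Dnmt1 was followed over its 52 exonic parts, which cover 7377 bases. Counts were found on 47, 49 and 46 parts in controls and on 43, 49 and 44 parts in the delipidated libraries. Summed over the 6 libraries, the coding part chr9:20919840-20919987 held the most counts, though other parts held more in single libraries. It had 258, 391 and 352 counts in controls and 698, 316 and 297 in the delipidated libraries. It made up between 4.48% and 7.91% of the counts of the gene, and the groups overlapped. The parts at 0 in all 6 libraries were chr9:20952846-20952979 and chr9:20952606-20952623, both in the UTR of first exons.

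In edgeR's test of part usage, 0 of the 44 tested parts of Dnmt1 passed a Benjamini-Hochberg adjusted p of 0.05, and 0 of 124388 parts of all genes did, which is 0%. Without delipidated replicate 3, 2 of 142150 parts were called, and 0 of those tested in the 10 genes. At an unadjusted p under 0.05 there were 2 parts of Dnmt1, against 1121 parts or 0.901% of all tested. These numbers depend on single libraries: without delipidated replicate 3 there were 5 parts of Dnmt1 and 3981 of all parts, without delipidated replicate 1 there were 0 and 2554, and without control replicate 2 or 3 there was 1 part of Dnmt1, among 1733 and 1453 of all parts. Without control replicate 1 or delipidated replicate 2 there were 2 parts of Dnmt1, among 1992 and 3005 of all parts. The coding part chr9:20924023-20924141 had 24, 51 and 61 counts in controls and 0, 30 and 4 counts after delipidation. As a share of the counts of Dnmt1 this was 0.663%, 0.719% and 1.29% in controls and 0%, 0.425% and 0.0756% after delipidation. The groups did not overlap in this share, as for 4.34% of the 219615 parts compared in this direction. The log2 usage difference was -2.37 and the unadjusted p was 0.0127 in edgeR's test of part usage. This part had enough counts for the test in every control library but not in every delipidated library. It thus entered the test through the group where it was high, and its p decides nothing about it. The coding part chr9:20918435-20918550 had 106, 291 and 199 counts in controls and 132, 156 and 116 counts after delipidation. It made up 2.93%, 4.10% and 4.21% of the counts of Dnmt1 in controls and 1.50%, 2.21% and 2.19% after delipidation, without overlap. Its unadjusted p in the same test was 0.0198. Both parts were named for their small p-values, so the separation in share is no further result.

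**Figure D4:**
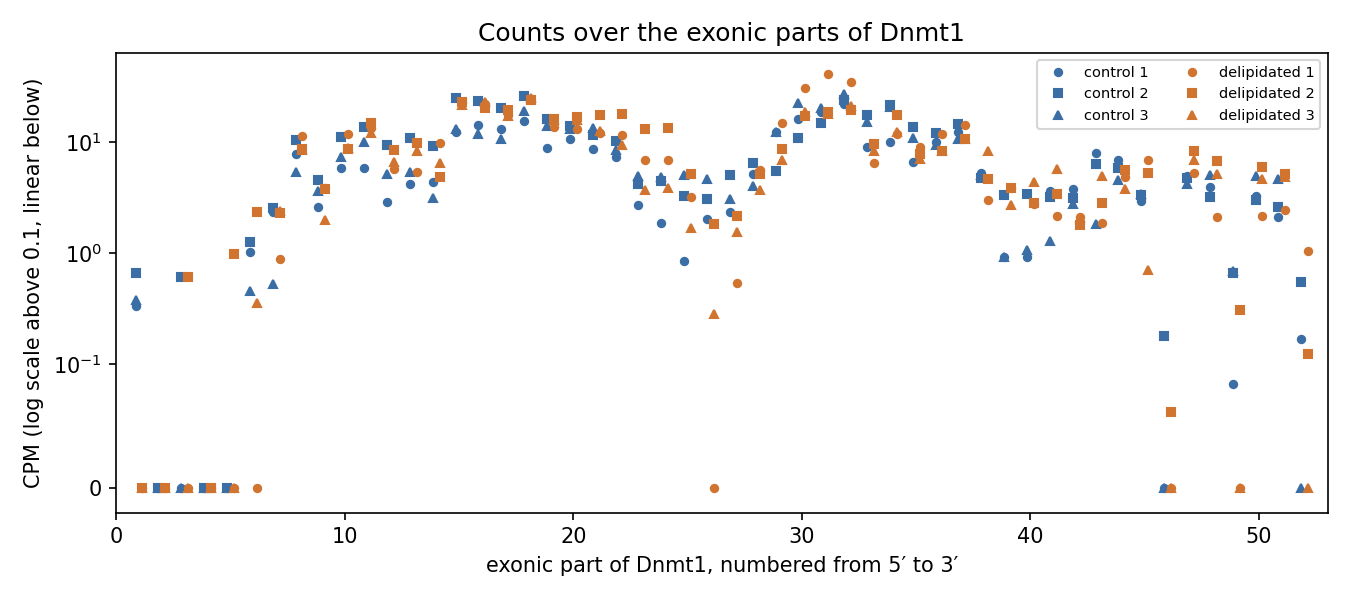
CPM of each library over the 52 exonic parts of Dnmt1, numbered from 5′ to 3′, on an axis that is linear below 0.1 CPM and logarithmic above. Few counts lie on parts 1 to 5, the first exons, and control and delipidated libraries intermingle over most of the coding parts.

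The annotation gives Dnmt1 alternative first exons, which matter because oocytes are known to start the gene at an upstream exon and make a shorter protein than somatic cells. The most upstream first exon, chr9:20959733-20959888 of transcript Dnmt1-202, lies in the UTR and had 4, 11 and 5 counts in controls and 0 in each delipidated library. In CPM this was 0.337, 0.665 and 0.380 in controls, and the 3 counts that a 0 allows in each library come to 0.148, 0.184 and 0.212 CPM after delipidation. The groups did not overlap, at an exact two-sided permutation p of 0.1, and all control libraries lay above all delipidated libraries on 3.64% of the 267588 parts with counts. This part was too low for the test of part usage, while Dnmt1 as a whole had 3622, 7095 and 4730 counts in the control libraries. The part of the lower number of genes with counts in this result was not tested.

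The first exon of the somatic transcript Dnmt1-201 had 0 counts in all 6 libraries on its UTR part, and on its other part chr9:20952708-20952845 it had 10 counts in control replicate 2, 10 in delipidated replicate 2 and 0 elsewhere. The first exon of Dnmt1-203 and Dnmt1-207, chr9:20951846-20952605, had 16 counts in delipidated replicate 2 and 0 elsewhere. The first exon that is coding in all 4 full-length transcripts, chr9:20941373-20941583, had 92, 173 and 71 counts in controls and 230, 140 and 119 counts after delipidation. The 8 parts from the most upstream one to this exon made up 3.75%, 3.62% and 1.88% of the counts of Dnmt1 in controls and 2.81%, 3.42% and 2.99% after delipidation. The delipidated libraries lay within the range of the control libraries, with an exact two-sided permutation p of 1.

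To show where these starts lie, the 250 bases before the starts of Dnmt1-202 and Dnmt1-201 are printed from RefSeq on GRCm38.p6, on the reverse strand, with the dinucleotide CG, the site of methylation, in capitals. A window was at hand for 9 of the 10 genes. The window of Dnmt1-202, chr9:20959889-20960138, held 2 CG, and 29.0% of 32851 windows of all genes held as few or fewer. The window of Dnmt1-201, chr9:20952980-20953229, held 7 CG beside a median of 6 over all windows. The window of Dnmt1-203, chr9:20952624-20952873, is not printed and held 26 CG, and 9.59% of all windows held as many or more. This window of Dnmt1-203 overlaps the first exon of Dnmt1-201.
Dnmt1-202: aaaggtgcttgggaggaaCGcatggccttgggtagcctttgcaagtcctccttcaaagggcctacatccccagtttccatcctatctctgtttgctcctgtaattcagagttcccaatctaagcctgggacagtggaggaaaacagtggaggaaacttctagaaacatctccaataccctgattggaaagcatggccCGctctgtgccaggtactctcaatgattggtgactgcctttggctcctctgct
Dnmt1-201: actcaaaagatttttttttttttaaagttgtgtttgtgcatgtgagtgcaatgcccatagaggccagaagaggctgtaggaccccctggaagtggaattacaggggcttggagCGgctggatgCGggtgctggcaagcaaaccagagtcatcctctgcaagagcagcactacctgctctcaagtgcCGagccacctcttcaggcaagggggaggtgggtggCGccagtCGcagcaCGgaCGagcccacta

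Over the 16 windows of the 9 genes the number of CG ranged from 2 before Dnmt1-202 to 51 before Tet2-201, a number that 0.067% of all windows reached. DNA methylation was not measured in these libraries.

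First exons of other members were also followed, and those named here were chosen after their values were seen. Tet3, the dioxygenase of the zygote, had 61, 102 and 62 counts on the first exon of Tet3-204, chr6:83459007-83459084, in controls and 16, 101 and 67 counts after delipidation. The downstream first exon of Tet3-202, chr6:83441550-83441632, had 10 counts in control replicate 3 and 0 elsewhere. Dnmt3l had 0, 23 and 10 counts on the upstream first exon of Dnmt3l-205, chr10:78042287-78042388, in controls and 5, 16 and 25 counts after delipidation. The first exon of Dnmt3l-201, chr10:78049842-78049911, was at 0 in all 6 libraries. The groups overlapped on each of these first exons that had counts in both groups.

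Over the 10 genes, 224 parts were tested for usage, 0 were called and 6 had an unadjusted p under 0.05, 2 each in Dnmt1, Tet1 and Tet2, where 0.901% of all parts tested had one. Without delipidated replicate 3 there were 13 of 235 parts, where 2.8% of all parts tested had one, and without any other single library there were from 4 to 6. Those of Tet1 adjoin each other near the 3′ end of the gene, at chr10:62813578-62813824. The shorter is 22 bases long, and a read that spans both counts in each, so they are not separate observations. The longer of them, chr10:62813578-62813802, had 6, 24 and 2 counts in controls and 85, 67 and 25 counts after delipidation. The groups did not overlap in CPM on this part, with the delipidated libraries higher, as on 2.66% of all parts with counts. This part was named for its small p in the usage test, so the separation is no further result. It had enough counts for the test in every delipidated library but not in every control library. It thus entered the test through the group where it was high, and its p decides nothing about it. On the part of Tet1 with the most counts, chr10:62878152-62880014, the groups overlapped with 416, 766 and 498 against 951, 709 and 416 counts.

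Other genes of the pathway were taken from 5 lists with 79 genes, of which 73 passed the filter and 0 were called in either direction by edgeR's quasi-likelihood test. At an unadjusted p under 0.05 there were 0 of them, beside 2.89% of the 16020 genes tested. Of all genes tested edgeR's test called 0 as well. DESeq2's Wald test and limma-voom also called 0 of the pathway genes. Their median log2 fold change was 0.03 with 39 positive and 34 negative, beside -0.00 over all genes tested. Cul4a was the gene among them whose delipidated libraries all lay above its control libraries, as was the case for 3.81% of all genes tested.

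Partners in imprint protection and heterochromatin, 17 genes, had a median log2 fold change of -0.03 with 8 positive and 9 negative. Zfp57, which guides TRIM28 to imprinted loci, had 807, 403 and 563 CPM in controls and 631, 854 and 904 CPM after delipidation. The groups overlapped through control replicate 1, and the log2 fold change was 0.43 (standard error 0.25), at an unadjusted p of 0.107. Arid4a had 355, 238 and 299 CPM in controls and 209, 226 and 256 CPM after delipidation, with an unadjusted p of 0.101.

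Partners of maintenance, 15 genes, had a median of -0.12 with 4 positive and 11 negative. Pcna, the sliding clamp that brings DNMT1 to replicating DNA, had 153, 163 and 171 CPM in controls and 116, 96.9 and 187 CPM after delipidation. The histone methyltransferase gene Suv39h2 had 59.7, 42.0 and 73.2 CPM in controls and 24.4, 38.3 and 60.0 CPM after delipidation. Delipidated replicate 3 was the library that made both genes overlap between the groups. Their log2 fold changes were -0.28 and -0.51, with unadjusted p-values of 0.302 and 0.196.

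Of the partners of TET enzymes and base excision repair, 18 of 22 genes were tested, with a median of 0.13, 15 positive and 3 negative. Cul4a, a scaffold of a ubiquitin ligase, had 27.8, 27.9 and 7.07 CPM in controls and 57.0, 29.7 and 32.8 CPM after delipidation. Its log2 fold change was 0.93 (standard error 0.51), at an unadjusted p of 0.0928. The repair scaffold gene Xrcc1 had 5.06, 26.0 and 18.5 CPM in controls and 18.8, 36.3 and 18.8 CPM after delipidation, with an unadjusted p of 0.326. Tdg, whose glycosylase removes oxidized methylcytosine, did not pass the filter, with 81 counts in control replicate 2 and 0 in the other 5 libraries, and Neil1, Cxxc4 and Cxxc5 did not pass it either.

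Of the methyl-CpG readers 7 of 8 were tested, Mbd3l1 being the exception, with a median of 0.25, 5 positive and 2 negative. Mbd3 had 35.0, 70.3 and 53.1 CPM in controls and 99.0, 66.2 and 47.0 CPM after delipidation, and Zbtb4 stayed at or below 2.30 CPM in all 6 libraries. Of the methionine and folate cycle, which supplies the methyl donor, 16 of 17 genes were tested without Gnmt, with a median of -0.00, 7 positive and 9 negative. Ahcyl2 had 63.9, 69.2 and 56.9 CPM in controls and 44.3, 58.4 and 43.3 CPM after delipidation, and Bhmt had 3.18 ± 3.55 and 8.62 ± 8.71 CPM (SD, n = 3). The unadjusted p-values of these named genes ranged from 0.194 to 0.388 in edgeR's quasi-likelihood test.

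The pattern of Dnmt1 over the 6 libraries was most like that of Gpd2, Exosc5 and Snupn, among 11359 other genes with a mean count of at least 50. Pearson correlations of log2 CPM, with a pseudocount of 1 CPM, were 0.997, 0.988 and 0.986, and 127 genes reached over 0.9. These are the highest of many correlations over 6 libraries that include both groups, and no p is given. Gpd2 had 23.3, 60.0 and 38.5 CPM in controls and 65.4, 60.2 and 41.1 CPM after delipidation, with control replicate 1 lowest as for Dnmt1.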

How the data were processed

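RNA of 2-cell embryos was measured in 3 control and 3 delipidated libraries. According to the authors' notes and methods, libraries were made from total RNA after depletion of ribosomal RNA, base calls were converted with bcl2fastq 2.20, reads were trimmed with Trimmomatic 0.36 and aligned to mm10 with STAR 2.5.2b, and uniquely mapped reads in exons were counted with featureCounts. The deposited values are raw counts per exonic part, without normalization, for 425461 parts.

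Parts were summed per gene; 27968 of 33309 parts with joined identifiers were assigned to the gene whose exons they overlap in GENCODE M21, and the others, between 2.49% and 2.57% of counts, were left out. No part of the 10 genes was joined. A read that spans parts counts in each, so sums exceed reads. Strand could not be used, so Dnmt3l shares its place with Aire, with an overlap of 0.983% of its counts, and Dppa3 has pseudogene copies that unique mapping can affect.

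The comparison of the groups used R 4.3.3 and edgeR 4.0.16 (filterByExpr, whose minimum count is 10 and minimum total 15, TMM normalization, quasi-likelihood test without covariates, Benjamini-Hochberg adjustment over all genes). The common biological coefficient of variation was 0.663. Part usage was tested with diffSpliceDGE over all parts. Single values were compared with exact permutation tests in scipy. DESeq2 1.42.0, limma 3.58.1, other filters and scalings, other treatments of parts, a replicate block and the omission of each library were alternatives.

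The members and lists were chosen with earlier results of these data known. Named are the 10 genes, from each pathway list the 2 genes with the smallest p where none was called, the most abundant gene of each marker list, the Dnmt1 parts with most counts, at 0 in all libraries or with the 2 smallest p-values, and the 3 genes most like Dnmt1; others are marked. Promoter windows come from RefSeq. Tables were handled with Python 3.11.15.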

Additional observations from a re-analysis of the deposited data

How the results depend on the processing

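Over the alternatives tried, none of the 10 genes, none of the other pathway genes and no part of Dnmt1 was called. Over all genes, the Wald test of DESeq2 called 9 genes higher and 40 lower. It was run without the filter on low counts but with the package's own default filtering. With no filter on low counts, edgeR called 5 higher and 25 lower. The cause of these calls was not tested. Those fits covered 30967 genes and moved the median log2 fold change of all genes to -0.17 and -0.18.

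Deviations of log2 CPM from the group means were correlated between control and delipidated libraries. Same-numbered libraries had correlations of -0.133, 0.106 and 0.0651, and the other pairs ranged from -0.262 to 0.208. With 3 libraries in each group, these values cannot settle whether the replicate numbers pair the libraries. With the replicate block 0 genes and 0 Dnmt1 parts were called, and the unadjusted p of Tet2 was 0.0453 in edgeR's quasi-likelihood test.

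The log2 fold change of Tet2 lay between -1.10 and -0.63, and between -1.10 and -0.95 with each library left out. Signs turned for genes whose intervals include 0; the cause was not tested. With the longest part of each gene, Dnmt3b was at -1.11, Tet1 at -0.11, Tet3 at -0.09 and Uhrf1 at -0.08, while Dnmt1 and Dnmt3a gave no value. With limma-voom Dnmt3a was at -0.00. With each library left out, Dnmt3a ranged from -0.21 to 0.19, Dnmt3l from -0.51 to 0.22, Tet3 from -0.13 to 0.43, Uhrf1 from -0.11 to 0.34 and Dppa3 from -0.07 to 0.22. In the same fits Dnmt1 ranged from 0.08 to 0.32, Dnmt3b from 0.11 to 0.70, Tet1 from 0.08 to 0.42 and Trim28 from -0.45 to -0.15. The difference in the share of Dnmt1 counts on its upstream parts ranged from -0.617 to 0.320 percentage points with each library left out.

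Levels per length also moved with the way in which length was counted. A setting added after the data were seen lengthened each part by the read length less 1 base. CPM per kb was then 635 for Dppa3, 37.5 for Trim28, 25.7 for Dnmt1 and 18.7 for Uhrf1. It was 6.64 for Dnmt3l, 6.19 for Dnmt3a and 2.60 for Dnmt3b. On the longest part it was 680 for Dppa3, 15.8 for Trim28, 13.5 for Uhrf1, 11.7 for Tet3, 7.40 for Dnmt3l, 1.92 for Tet2, 1.32 for Dnmt3b, 1.07 for Tet1, 0.216 for Dnmt1 and 0.166 for Dnmt3a; a single part need not be in use. Low counts limit single parts: 8 of 33 parts of Tet2 and 15 of 34 parts of Dnmt3b could be tested for usage.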
